A study of Rattus norvegicus with 9 samples.

Results

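The transcriptional response of bone marrow-derived dendritic cells (BMDCs) to α-galactosylceramide (α-GalCer) was examined by comparing the 3 α-GalCer libraries with the 3 vehicle control libraries, 6 of the 9 RNA-seq libraries of the series. All genes that passed a filter on low counts were kept, which left 12602 of the 32545 genes in the table. In the α-GalCer group, wild-type rat BMDCs received synthetic α-GalCer (KRN700) at 100 ng/mL, given in DMSO that had been diluted in PBS. In the vehicle control group, the same cells received an equal volume of DMSO in PBS. Both groups, and the third group of the series, came from Sprague-Dawley rats of 8 to 12 weeks, were differentiated from femoral bone marrow in GM-CSF plus FLT3L and were collected after 6 h of stimulation on day 7 of culture. The third group received the total lipids (TLs) of Lactobacillus johnsonii N6.2 at 600 ng/mL in PBS without DMSO. It enters here through the filter on low counts, the scaling of libraries, the estimate of the spread and the mean levels that sort genes. It also limits which genes have a symbol and serves as a scale for single genes. The study describes independent assays but does not say whether each library came from a separate animal, so p-values measure the spread between these libraries, which may be partly technical.

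α-GalCer is a glycolipid in which a galactose is joined to a ceramide. It binds CD1d, a protein related to MHC class I that displays lipids, and the complex is recognized by the invariant T cell receptor of invariant natural killer T (iNKT) cells. Dendritic cells that carry it are matured mainly by the cytokines and the CD40 ligand of the iNKT cells they activate, whereas microbial lipids can also act on dendritic cells directly through pattern recognition receptors. Cultures with GM-CSF and FLT3L are known to give a mix of dendritic cells and macrophage-like cells, so the groups were compared as mixtures, in which fewer cells of a type and less RNA per cell cannot be told apart.

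The libraries held between 16357236 and 17882018 counts, and 3 counts in a library correspond to between 0.168 and 0.183 CPM (counts scaled to the total of the library). In the levels of genes, that total is adjusted by edgeR's scaling factor. Markers of the cells were abundant in both groups. Itgax, which encodes the dendritic cell integrin CD11c, had between 369 and 482 CPM over the 6 libraries, and Csf1r, the receptor of macrophage colony-stimulating factor, had between 883 and 951 CPM. Gpnmb, a glycoprotein of macrophages and dendritic cells, reached between 7343 and 7849 CPM. Mpo, the peroxidase of granulocytes and their progenitors, was also abundant, with between 468 and 536 CPM. Of the 20 genes listed for T, NK and iNKT cells, symbols could be matched to IDs for 6, which did not include Cd3e, Cd3d, Cd3g or Zbtb16, so the content of iNKT cells was not measured here. In the 3 α-GalCer libraries, Xcl1, a chemokine of activated T and NK cells, had 0.523, 0.381 and 0.490 CPM. The vehicle control libraries had 0.585, 0.568 and 0.286 CPM of Xcl1, so it was below 1 CPM in every library of both groups. Cd1d1 had no ID that could be matched and was not analysed here.

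One vehicle control library stood apart from the other 5. On the first principal component of the 6 libraries, which held 28.6% of the variance, the α-GalCer libraries lay at -8.56, 0.84 and 5.02, against -15.9, 33.0 and -14.4 for vehicle control replicates 1, 2 and 3. The second component, with 20.4% of the variance, set α-GalCer replicate 2 apart, at 28.5, and neither axis separated the groups. Of 8589 well-counted genes, 5.43% and 5.64% differed by over 1.5-fold between vehicle control replicate 2 and vehicle control replicates 1 and 3, while only 0.477% did so between replicates 1 and 3 themselves. Among the α-GalCer libraries, that share was between 0.547% and 1.43%. Vehicle control replicates 1 and 3 were the closest pair of all, with a median absolute log2 ratio of 0.06 (the other pairs lay between 0.09 and 0.19). All main results are therefore given with and without vehicle control replicate 2.

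**Figure D1:**
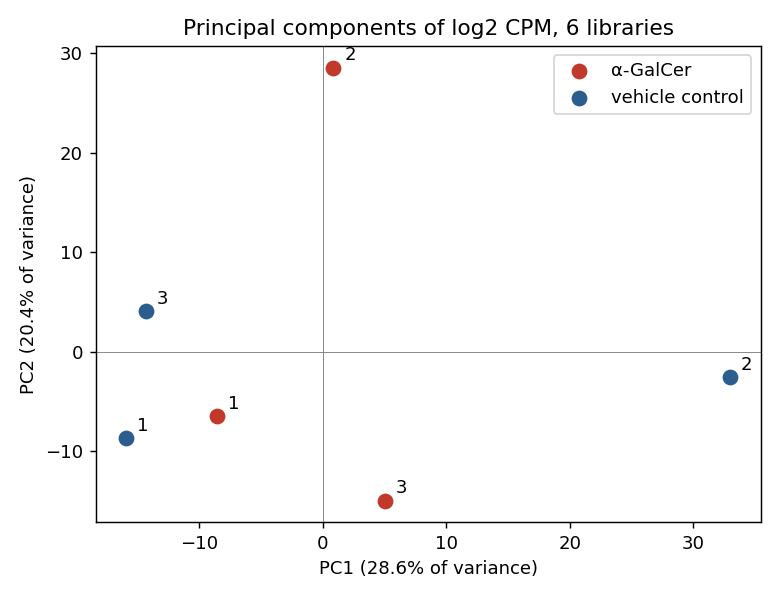
First and second principal components of log2 CPM in the 3 α-GalCer libraries (red) and the 3 vehicle control libraries (blue), numbered by replicate, with the percent of variance on each axis. Vehicle control replicate 2 lies at 33.0 on the first component and α-GalCer replicate 2 at 28.5 on the second, away from the other 4 libraries.

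Among genes with a symbol, those in which vehicle control replicate 2 lay farthest out were mostly low in it. Many abundant immune genes were instead higher in it than the mean of the other 5 libraries. Examples are Il1b and Psmb8, by 0.38 and 0.35 on the log2 scale, while others such as Wdfy4 were lower (-0.23). The 10 genes with a symbol and at least 10 CPM in which that library lay farthest from the other 5 were Cbl, Tulp4, Slc8a1, Fndc3b, Bach1, Ak4, Skil, Wasf2 and Ric1, which were low in it, and Slpi, which was high. Cbl, a ubiquitin ligase that dampens receptor signalling, had 36.1, 28.4 and 25.6 CPM in α-GalCer libraries, against 34.2, 14.2 and 35.4 CPM in vehicle control libraries 1, 2 and 3. Bach1, a repressor of the heme oxygenase gene, had 40.6, 38.7 and 40.7 CPM in α-GalCer libraries, against 46.6, 25.4 and 43.2 CPM in vehicle control libraries. Slpi, a secreted inhibitor of leukocyte proteases, had 65.8, 67.1 and 71.8 CPM with α-GalCer and 75.4, 115 and 57.4 CPM with the vehicle control. In each of these 3 genes, vehicle control replicates 1 and 3 stayed near the α-GalCer libraries. Ribosomal protein genes moved the other way: the 15 tested genes summed to 9868, 10410 and 11020 CPM in α-GalCer libraries, against 9567, 12950 and 9686 CPM in vehicle control libraries, with the highest sum in replicate 2. Without vehicle control replicate 2, 7 of the 15 had an unadjusted p under 0.05, all higher with α-GalCer (5.33% of all genes), and 15 were level. In that fit, 202 of the 2128 genes from 100 to 1000 CPM were higher at that p. At 1000 CPM and over, 18 of 97 were. Of the 4 lists of markers of other cells, granulocytes and megakaryocytes among them, 2 had their highest sum in that library. The 6 tested of 15 listed genes of granulocytes and their progenitors summed to 670.8, 646.3 and 671.1 CPM with α-GalCer and to 664.9, 772.1 and 661.9 CPM with the vehicle control, and the 5 tested of 9 listed genes of megakaryocytes, platelets, mast cells and basophils summed to 263, 284 and 289 CPM with α-GalCer and to 260, 324 and 260 CPM with the vehicle control. That sum followed 1 gene, Pf4, a platelet chemokine, with 213, 232 and 240 CPM in α-GalCer libraries, against 207, 281 and 211 CPM in vehicle control libraries. Il1rl1, the interleukin-33 receptor of mast cells and basophils, had its lowest level in vehicle control replicate 2, 17.5 CPM, and so did Hpgds, a prostaglandin D synthase, with 6.59 CPM. The lists of T, NK and iNKT cells (329 CPM) and of B cells (41.8 CPM) had their highest sums in α-GalCer replicate 2, with 335 and 43.1 CPM. Elane, S100a8, S100a9 and Ltf, which define granulocytes, had no ID that could be matched, and the part of such cells in the results was not tested.

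No gene was called for α-GalCer when all libraries were used. At the study's thresholds for DEGs, an adjusted p under 0.01 with an absolute log2 fold change over 0.3, 0 of 12602 genes (0%) passed edgeR's quasi-likelihood test with Benjamini-Hochberg adjustment. At an unadjusted p under 0.05 there were 370 genes (2.94%), 158 (1.25%) higher and 212 (1.68%) lower with α-GalCer, which is fewer than the 5% that unchanged genes would give. limma-voom likewise called 0 genes, with 366 at an unadjusted p under 0.05, and DESeq2 called 2 (0.0159%), with 269. The libraries of the groups did not overlap in 850 genes (6.74%). Without vehicle control replicate 2, 1 of 12786 genes was called (0.00782%) and 1472 (11.5%) reached an unadjusted p under 0.05, of which 682 (5.33%) were higher and 790 (6.18%) lower with α-GalCer. The comparison thus rested on that library for its number of small p-values, but not for the number of DEGs by edgeR, which stayed at 1 or below.

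The absence of calls was read against the size of change that these libraries could show. For each gene, the 95% interval of the log2 fold change gives the changes that remain compatible with the counts. Over all genes tested, the median half-width of that interval was 0.25 on the log2 scale, a 1.19-fold change, and without vehicle control replicate 2 it was 0.23. It narrowed with the level of the gene. Genes under 1 CPM had a median half-width of 0.99, or 1.99-fold. From 1 to 10 CPM it was 0.51, or 1.42-fold, and from 10 to 100 CPM it was 0.22, or 1.16-fold. Above 100 CPM it was 0.15, or 1.11-fold. The 90th percentile at 100 to 1000 CPM was 0.25, or 1.19-fold.

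**Figure D2:**
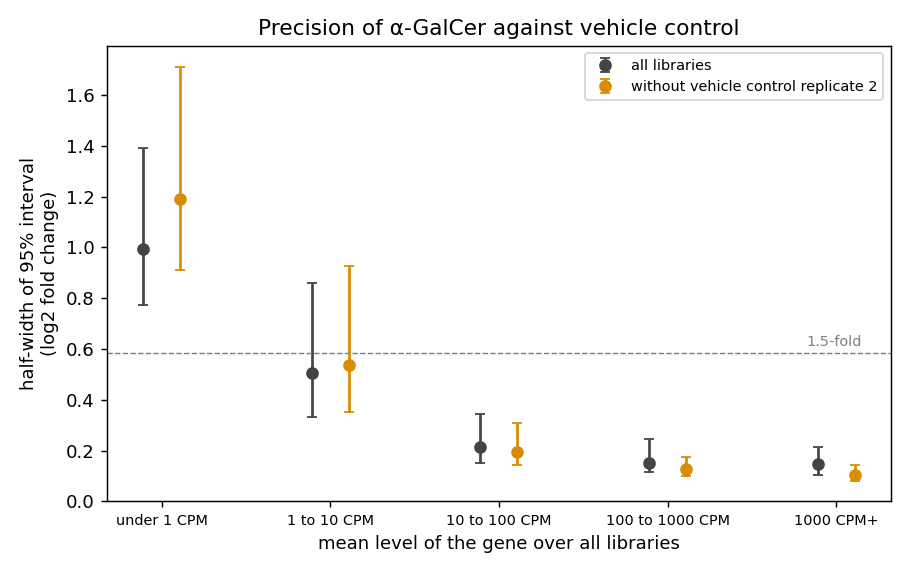
Half-width of the 95% interval of the log2 fold change of α-GalCer over the vehicle control, by the mean level of the gene over all libraries, with all libraries (grey) and without vehicle control replicate 2 (orange). Points are medians, bars run from the 10th to the 90th percentile of genes, and the median falls with the level, with 0.99 under 1 CPM and 0.15 at 1000 CPM and over when all libraries are used.

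A gene was called level when both 1-sided tests against a 1.5-fold change passed after Benjamini-Hochberg adjustment at 0.05. By this test on the edgeR fit, 9855 genes (78.2%) were level within 1.5-fold and 11495 (91.2%) within 2-fold, while 5284 (41.9%) were level within the study's own threshold of 0.3 on the log2 scale. The share level within 1.5-fold was 0.109% under 1 CPM, 46.2% from 1 to 10 CPM, 97.6% from 10 to 100 CPM, 99.2% from 100 to 1000 CPM and 100% of the 97 genes at 1000 CPM and over. Without vehicle control replicate 2, 9510 genes (74.4%) were level within 1.5-fold, and 9360 genes were level both with and without that library. When vehicle control replicate 2 was left out, the share of genes at an unadjusted p under 0.05 rose with the level of the gene. It was 4.57% under 1 CPM, 5.01% from 1 to 10 CPM and 12.9% from 10 to 100 CPM. From 100 to 1000 CPM it was 19.9%, and at 1000 CPM and over it was 22.7%. The largest number of such genes, 822, lay between 10 and 100 CPM, against 423 between 100 and 1000 CPM. Of the 6374 genes from 10 to 100 CPM, 377 were higher and 445 lower. Of the 2128 from 100 to 1000 CPM, 202 were higher and 221 lower. The shares of all genes (5.33% higher and 6.18% lower) set beside list counts from that fit are therefore not matched for level.

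Abundant immune genes stayed level. In the 9 lists of immune genes, 58 tested genes had a mean of at least 100 CPM over the 6 libraries, and 58 of these 58 were level within 1.5-fold, with all libraries and also without vehicle control replicate 2. Of all tested genes, 78.2% were level, and of those from 100 to 1000 CPM, 99.2%. Their log2 fold changes lay between -0.21 and 0.08. The lowest bound of any of their intervals was 0.732-fold (Wdfy4) and the highest 1.26-fold (Ccl12), and in 53 of the 58 the whole interval lay inside 1.25-fold either way. Only 2 of them, Itgax and Mrc1, reached an unadjusted p under 0.05 with all libraries, and neither passed after adjustment by edgeR. The 82 immune genes between 10 and 100 CPM were level in 80 cases, those between 1 and 10 CPM in 5 of 17, and those under 1 CPM in 0 of 12. Against 4.81% of all genes under 1 CPM, 3 of those 12 immune genes (25%) had an unadjusted p under 0.05 with all libraries. A symbol could be matched only to genes that the study called between TLs and the vehicle control, so these are immune genes that TLs moved in the study's test, and the vehicle control libraries are shared by both comparisons.

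**Figure D3:**
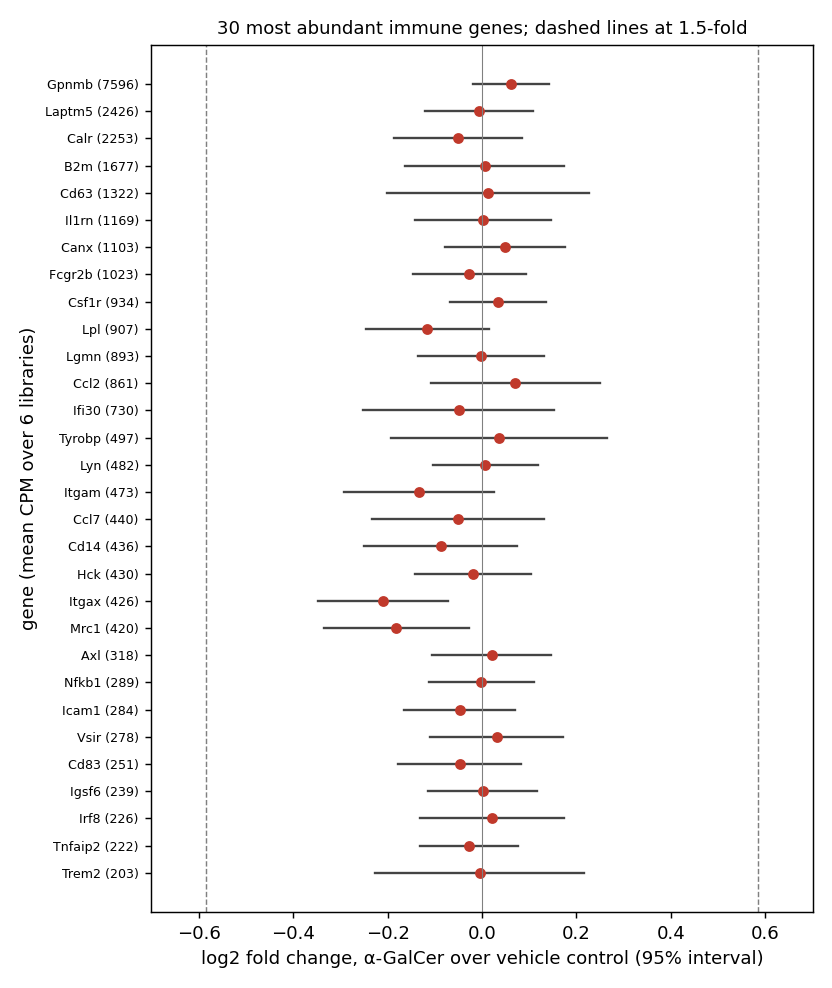
Log2 fold change of α-GalCer over the vehicle control (red points) with its 95% interval (lines) for the 30 most abundant immune genes, with the mean CPM over the 6 libraries beside each name. All 30 intervals lie inside the dashed lines at 1.5-fold, with fold changes between -0.21 for Itgax and 0.07 for Ccl2 on the log2 scale.

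Genes of antigen presentation and lysosomal lipid handling, the machinery that loads and displays peptides and glycolipids, were level in 14 of 14 and 20 of 21 tested members (78.2% of all genes), with median log2 fold changes of -0.02 and 0.01 (0.00 over all genes). B2m, the light chain shared by MHC class I and CD1d, had 1566, 1781 and 1695 CPM in α-GalCer libraries, against 1550, 1888 and 1583 CPM in vehicle control libraries. The groups overlapped, and the interval of the fold reached from 0.893 to 1.13. Calr and Canx, chaperones that fold these molecules in the endoplasmic reticulum, had intervals from 0.879 to 1.06 and from 0.947 to 1.13. Lipa, the lysosomal acid lipase, had 920, 931 and 897 CPM with α-GalCer and 967, 951 and 961 CPM with the vehicle control. Although its groups did not overlap, the interval of its fold ran from 0.887 to 1.03. Naaa, a lysosomal amidase of lipid amides, lay between 398 and 423 CPM with α-GalCer and between 378 and 420 CPM with the vehicle control, with an interval from 0.943 to 1.12. Lrp1, an endocytic receptor of lipoproteins, depended on the library left out: its log2 fold change was -0.13 (95% interval -0.43 to 0.17) with all libraries and -0.29 (-0.47 to -0.11) without vehicle control replicate 2, at an adjusted p of 0.288. The exception among the 21 lipid genes was Acer2, an alkaline ceramidase. It had 27 counts in all α-GalCer libraries and 51 in all vehicle control libraries. Its log2 fold change, -0.946, was the lowest of the list, and at these low counts it could not be called level. With all libraries, 1 of the 21 had an unadjusted p under 0.05 by edgeR (2.94% of all genes), and 0 were called.

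Pattern recognition receptors, which sense microbial products, were level in 19 of 19 tested members. Without vehicle control replicate 2, 19 of 19 were level too, and 3 had an unadjusted p under 0.05, all lower (6.18% of all genes). Tlr2, the receptor of bacterial lipoproteins, had 76.5, 77.4 and 72.1 CPM in α-GalCer libraries, against 73.4, 74.9 and 75.9 CPM in vehicle control libraries. Its log2 fold change was 0.01 (SE 0.05), with an interval from 0.931-fold to 1.09-fold. For scale, the TL libraries averaged 544 CPM of Tlr2. Cd14, the co-receptor of lipopolysaccharide, had 408, 465 and 396 CPM with α-GalCer, a mean of 2420 CPM with TLs, and 425, 493 and 431 CPM with the vehicle control, and its interval of α-GalCer over the vehicle control ran from 0.841 to 1.05. Nlrp3, the sensor of an inflammasome, had an interval from 0.934 to 1.10. Tlr4, the receptor of lipopolysaccharide, had 62.7, 64.0 and 57.9 CPM with α-GalCer and 69.8, 51.2 and 65.7 CPM with the vehicle control, and its groups overlapped.

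The NF-kB subunits and feedback genes, through which these receptors switch on inflammatory transcription, were level in 21 of 21 tested members, with a median log2 fold change of -0.03. Nfkb1, which encodes the p50 subunit and its precursor, had 299, 289 and 278 CPM with α-GalCer and 299, 279 and 288 CPM with the vehicle control, and its interval ran from 0.925 to 1.08. Nfkb2, the subunit of the non-canonical pathway, had the interval from 0.829 to 1.01. Of the immediate-early genes, 20 of 20 were level, among them Myc (0.951 to 1.14) and Egr2 (0.956 to 1.12), transcription factors that growth and activation signals induce within the first hours. Without vehicle control replicate 2, 20 of 20 were level too. In that fit 3 were higher and 3 lower at an unadjusted p under 0.05 (5.33% and 6.18% of all genes). Lyn, a kinase of the Src family, had 474, 505 and 471 CPM with α-GalCer and 471, 481 and 492 CPM with the vehicle control, with an interval from 0.930 to 1.09.

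Cytokines and chemokines were level in 20 of 34 tested members, and the other 14 were low in both groups. With all libraries, 3 of the 34 had an unadjusted p under 0.05 by edgeR (2.94% of all genes). Without vehicle control replicate 2, 20 of 35 were level. In that fit 5 were higher and 2 lower at an unadjusted p under 0.05 (5.33% and 6.18% of all genes). Il1rn, the antagonist of the interleukin-1 receptor, was the most abundant, with 1116, 1271 and 1124 CPM in α-GalCer libraries, against 1169, 1242 and 1095 CPM in vehicle control libraries. The interval of its fold ran from 0.906 to 1.11. Ccl2, a chemokine that draws monocytes, had 808, 899 and 939 CPM with α-GalCer and 764, 947 and 808 CPM with the vehicle control. With all libraries its log2 fold change was 0.07 (-0.11 to 0.25), and without vehicle control replicate 2 it was 0.17 (0.04 to 0.30, adjusted p = 0.36 by edgeR). Cxcl3, a neutrophil chemokine, had 139, 163 and 138 CPM with α-GalCer, a mean of 3549 CPM with TLs, and 133, 162 and 135 CPM with the vehicle control, with an interval of α-GalCer over the vehicle control from 0.898 to 1.17. The interleukins Il6 and Il10 were near the detection limit in both groups. Il6 had 10 counts in the 3 α-GalCer libraries and 11 in the 3 vehicle control libraries, and its interval, from 0.203 to 3.81, left a change of several-fold undetectable at this depth. Il10 had 0 counts in the 3 α-GalCer libraries, each of which could hide up to 3 counts, and 7 counts in the 3 vehicle control libraries, of which 6 were in replicate 1. By edgeR with all libraries, Il10 had a log2 fold change of -4.28 at an unadjusted p under 0.05. It was called in no alternative, with a lowest adjusted p of 0.358. Csf2, the gene of GM-CSF, had 10 counts with α-GalCer and 2 with the vehicle control.

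Costimulatory and maturation genes, which mark the activation of dendritic cells, were level in 20 of 22 tested members, with a median log2 fold change of 0.00. Cd83, a surface marker of mature dendritic cells, had 236, 251 and 254 CPM with α-GalCer and 248, 274 and 243 CPM with the vehicle control, with an interval from 0.885 to 1.06. Icam1, the adhesion molecule that binds T cell integrins, had 286, 285 and 266 CPM with α-GalCer, a mean of 850 CPM with TLs, and 293, 297 and 275 CPM with the vehicle control. Its interval of α-GalCer over the vehicle control ran from 0.892 to 1.05. Vsir, an inhibitory receptor of T cells, and Cd276, a member of the B7 family, had intervals from 0.926 to 1.13 and from 0.886 to 1.06. The members that could not be called level, Tnfsf15 and Tnfsf18, ligands of the tumor necrosis factor family, were below 10 CPM in every library of both groups.

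Fc, lectin and scavenger receptors, with which the cells take up antigen, were level in 25 of 27 tested members. Without vehicle control replicate 2, 25 of 27 were level too. In that fit 2 were higher and 6 lower at an unadjusted p under 0.05 (5.33% and 6.18% of all genes). Fcgr2b, the inhibitory Fc receptor, had 960, 1094 and 986 CPM with α-GalCer and 1030, 1036 and 1032 CPM with the vehicle control, and Laptm5, a lysosomal protein of leukocytes, had the interval from 0.920 to 1.08. Mrc1, the mannose receptor, had 391.7, 385.6 and 404.5 CPM with α-GalCer and 460, 397 and 483 CPM with the vehicle control. Its log2 fold change was -0.18 (-0.34 to -0.03), and vehicle control replicate 2 lay within the range of the α-GalCer libraries. Interferon-induced genes were level in 14 of 18 tested members, and 2 of them, Rsad2 and Oas1k, had unadjusted p-values under 0.05 (2.94% of all genes). This count turned on vehicle control replicate 2. Without it, 8 of 19 tested members had an unadjusted p under 0.05, 7 lower and 1 higher with α-GalCer (6.18% and 5.33% of all genes), with a median log2 fold change of -0.12, 0 of 19 called and 13 level. The 18 members tested with all libraries summed to 1030, 1076 and 1005 CPM in α-GalCer libraries, against 1111, 1016 and 1128 CPM in vehicle control libraries, so that replicate 2 lay among the α-GalCer libraries. Rsad2, an antiviral enzyme also called viperin, had 3.20, 4.52 and 3.49 CPM in α-GalCer libraries, against 5.09, 5.39 and 6.34 CPM in vehicle control libraries, a log2 fold change of -0.58 (-0.95 to -0.22) with an adjusted p of 1. The groups of Rsad2 did not overlap, but the more abundant members of the list were level with all libraries, with intervals from 0.859 to 1.06 for Zc3hav1, an antiviral zinc finger protein, and from 0.894 to 1.06 for Lgals3bp, a secreted galectin-binding glycoprotein.

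A few genes differed by several-fold. Ewsr1, which encodes an RNA-binding protein of the FET family, had 6.68, 3.70 and 6.86 CPM in α-GalCer libraries, against 15.2, 21.1 and 24.8 CPM in vehicle control libraries. All 3 α-GalCer libraries were below all 3 vehicle control libraries. Its log2 fold change was -1.82 (SE 0.25, interval -2.37 to -1.28), with an adjusted p of 0.204 by edgeR and of 4.39e-10 by DESeq2, and over all 22 alternatives the adjusted p lay between 4.39e-10 and 0.883, with log2 fold changes between -1.996 and -1.588. Without vehicle control replicate 2 it was -1.80, with an adjusted p of 0.0761. The TL libraries had 8.28, 7.40 and 6.10 CPM of Ewsr1, near those with α-GalCer.

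The gene with ID ENSRNOG00000053118, which has no symbol here, differed in the other direction. It had 4.82, 19.6 and 14.1 CPM in α-GalCer libraries, against 1.40, 0.908 and 2.00 CPM in vehicle control libraries, and between 0.724 and 1.54 CPM in TL libraries. Again the groups did not overlap, but the 3 α-GalCer libraries were themselves far apart, with the lowest in replicate 1. The log2 fold change was 3.15 (SE 0.49, interval 2.08 to 4.24), with an adjusted p of 0.338 by edgeR, of 1.06e-08 by DESeq2, and between 1.06e-08 and 1 over all alternatives. With all libraries, Ewsr1 and ENSRNOG00000053118 were the 2 genes called by DESeq2. The same 2 were called by edgeR when no filter on low counts was set (0.0108% of the 18596 genes then tested). Neither was among the 32 genes (0.25%) that DESeq2 called without vehicle control replicate 2. By edgeR without that library, ENSRNOG00000053118 had a log2 fold change of 2.91 (1.75 to 4.08) and an adjusted p of 0.144.

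The only gene called by edgeR without vehicle control replicate 2 was ENSRNOG00000046379, which also has no symbol here. It had 2.91, 1.36 and 3.21 CPM in α-GalCer libraries, against 40.5, 2.16 and 61.4 CPM in vehicle control libraries. Vehicle control replicate 2 was at the level of the α-GalCer libraries, as were the TL libraries, which had between 2.02 and 3.36 CPM. The gene was therefore high in vehicle control replicates 1 and 3 alone, out of the 9 libraries. Its log2 fold change was -4.35 (interval -4.99 to -3.72, adjusted p = 0.000127 by edgeR) without that library and -3.80 (interval -5.71 to -1.89, adjusted p = 1) with it, and the adjusted p lay between 0.000127 and 1 over all alternatives.

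**Figure D4:**
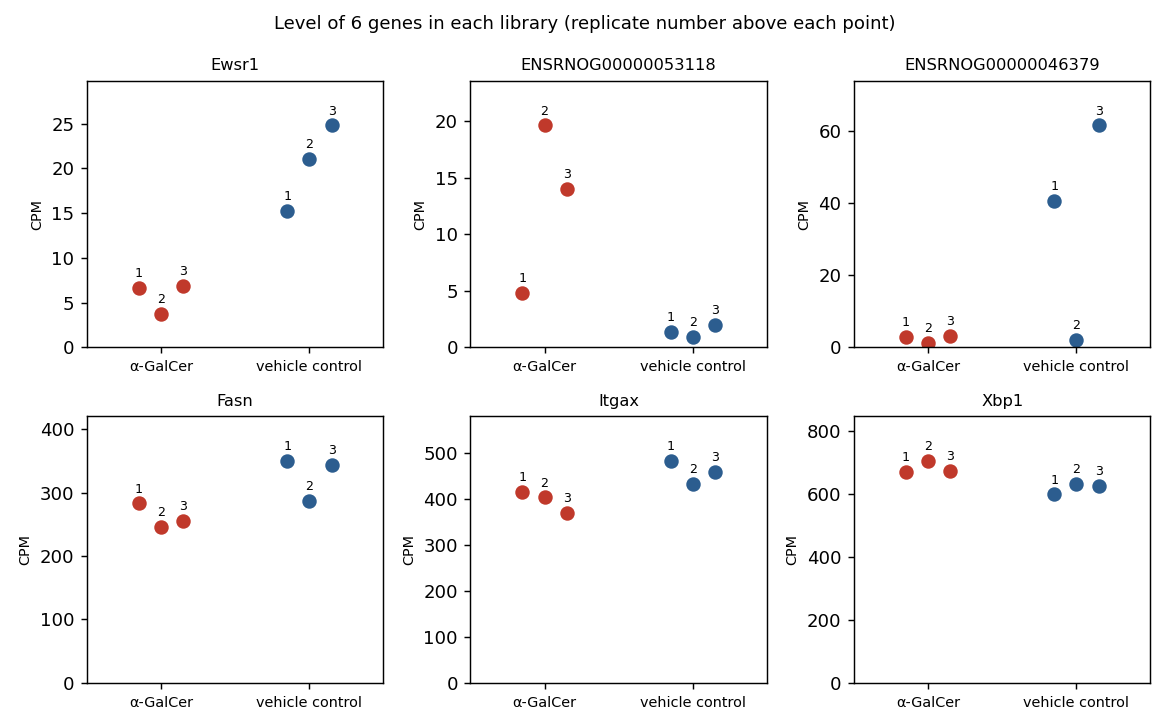
Level in CPM, on axes that start at 0, of 6 genes in the 3 α-GalCer libraries (red, left) and the 3 vehicle control libraries (blue, right), each point a library with its replicate number. Ewsr1, Fasn and Itgax are lower and ENSRNOG00000053118 and Xbp1 higher in every α-GalCer library than in any vehicle control library, while vehicle control replicate 2, at 2.16 CPM, sits with the α-GalCer libraries for ENSRNOG00000046379.

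Smaller differences could be followed in 38 genes with a symbol, at least 1 CPM and no overlap between the groups that had an unadjusted p under 0.05 both with and without vehicle control replicate 2 (6.74% of all genes did not overlap). None passed after adjustment in either fit. Of these genes, 8 were higher and 30 lower with α-GalCer. At an unadjusted p under 0.05 with all libraries, 26 of the 1839 tested genes with a symbol were higher and 45 lower. Over all genes tested, 158 (1.25%) were higher and 212 (1.68%) lower at that p. Among all genes tested, 237 had an unadjusted p under 0.05 in both fits. Genes with a symbol reached an unadjusted p under 0.05 with all libraries in 71 of 1839 cases (3.86%), and genes without one in 299 of 10763 (2.78%). Of those that were higher, Xbp1, Rras2, Twsg1, Cyp1b1, Nrg1, Mcm5 and Stx11 had log2 fold changes between 0.13 and 0.32. Xbp1, a transcription factor of the unfolded protein response and of secretory cells, had 671, 706 and 673 CPM in α-GalCer libraries, against 599, 633 and 626 CPM in vehicle control libraries. This is a log2 fold change of 0.14 (0.04 to 0.25), so Xbp1 was separated between the groups and level within 1.5-fold at the same time. Cyp1b1, a cytochrome P450 that the aryl hydrocarbon receptor induces, had 19.5, 16.2 and 17.1 CPM with α-GalCer and 14.5, 12.6 and 15.1 CPM with the vehicle control, a log2 fold change of 0.32 (0.09 to 0.55). Mcm5, a subunit of the replicative helicase, had 0.13 (0.01 to 0.24), and the cell cycle list as a whole was level in 39 of 39 tested members.

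Among the 30 that were lower, those with the smallest p included Ewsr1, Fasn, Creb5, C3, Best1, Sptan1, Nup214, Itgax and Atp13a1. Of these, Ewsr1 and Creb5 could not be called level within 1.5-fold, and the others could. Creb5, a transcription factor that binds cyclic AMP response elements, had 7.55, 7.29 and 7.41 CPM in α-GalCer libraries, against 11.1, 9.71 and 12.1 CPM in vehicle control libraries, a log2 fold change of -0.56 (-0.81 to -0.31). C3, the central component of complement, had 119, 117 and 105 CPM with α-GalCer and 146, 138 and 137 CPM with the vehicle control. The gap between the groups of C3 was wider than the spread within either, and the log2 fold change was -0.30 (-0.43 to -0.16). Best1, a chloride channel, had 20.16, 21.002 and 22.01 CPM with α-GalCer and 27.5, 27.8 and 28.6 CPM with the vehicle control, with a log2 fold change of -0.41 (-0.59 to -0.23). Itgax had 415, 403 and 369 CPM with α-GalCer and 482, 431 and 458 CPM with the vehicle control, a log2 fold change of -0.21 (-0.35 to -0.07). Itgam, which encodes CD11b, a related integrin subunit, had -0.13 (-0.29 to 0.02) with all libraries and -0.21 (-0.32 to -0.11) without vehicle control replicate 2. By edgeR, the adjusted p of Creb5, C3, Best1, Itgax and Itgam was 1 with all libraries and lay between 0.141 and 0.188 without vehicle control replicate 2. DESeq2 without that library gave C3 an adjusted p of 0.00151. Over all alternatives, the lowest adjusted p was 0.00513 for both Itgax and Itgam, 0.123 for Creb5 and 0.116 for Best1. Itgax and Itgam were called in no alternative, since their log2 fold changes stayed within the threshold of 0.3.

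Genes of sterol and fatty acid synthesis included small differences in both directions, none of which passed after adjustment by edgeR. Their 17 tested members were all level within 1.5-fold, with a median log2 fold change of -0.09 (0.00 over all genes), and 6 of them had an unadjusted p under 0.05 (2.94% of all genes), 5 lower and 1 higher with α-GalCer (1.68% and 1.25% of all genes). They summed to 1948, 1865 and 1936 CPM in α-GalCer libraries, against 2104, 2017 and 2101 CPM in vehicle control libraries. The groups did not overlap, replicate 2 included, as was also so for 6.74% of all single genes. The sums of mitochondrially encoded genes did not overlap either, at 4459 against 4461 CPM. The separation of these sums was not tested. Without replicate 2, 6 of the 17 had an unadjusted p under 0.05, all lower (6.18% of all genes), and 16 were level. Fasn, the fatty acid synthase, had 283, 245 and 256 CPM in α-GalCer libraries, against 350, 287 and 344 CPM in vehicle control libraries. Its log2 fold change was -0.32 (SE 0.09, interval -0.52 to -0.12) with all libraries and -0.41 without vehicle control replicate 2, where edgeR gave an adjusted p of 0.141 and DESeq2 one of 1.35e-05 (between 1.35e-05 and 1 over all alternatives). Fdft1, which makes squalene, had -0.21 (-0.34 to -0.08), and Srebf2, the transcription factor that governs the sterol pathway, had -0.14 (-0.27 to -0.02). Hmgcs1 and Msmo1, enzymes early and late in that pathway, had -0.14 and -0.20. Elovl5, a fatty acid elongase, was the member with p under 0.05 that was higher, with 0.20 (0.02 to 0.39), but without vehicle control replicate 2 it had 0.12 (-0.03 to 0.27). The highest log2 fold change of the list was that of Acss2, an acetyl-CoA synthetase, with 0.29 (-0.04 to 0.62), and Acly and Fads1 had -0.01 and -0.05. Except for Fasn, these members with p under 0.05 were singled out after their values had been seen. By edgeR none passed after adjustment, with or without vehicle control replicate 2.

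Mitochondrially encoded genes, which supply subunits of the respiratory chain, had the lowest median of the lists, -0.28 on the log2 scale over 5 tested members, of which 4 were level within 1.5-fold (78.2% of all genes) and 2 had an unadjusted p under 0.05 (2.94% of all genes). Without vehicle control replicate 2, 3 of the 5 had one, all lower (6.18% of all genes). Their sum was 3554, 4459 and 3866 CPM in α-GalCer libraries, against 4863, 4550 and 4461 CPM in vehicle control libraries. α-GalCer replicate 2 thus came within reach of vehicle control replicate 3, while the other α-GalCer libraries were clearly below. Mt-cyb, the cytochrome b gene, had 1030, 1306 and 1099 CPM with α-GalCer and 1479, 1340 and 1357 CPM with the vehicle control, a log2 fold change of -0.28 (-0.47 to -0.09) with an adjusted p of 1. Mt-nd5, a subunit of complex I, was not level: it had 418, 481 and 375 CPM with α-GalCer and 613, 384 and 559 CPM with the vehicle control, and its groups overlapped through replicate 2.

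**Figure D5:**
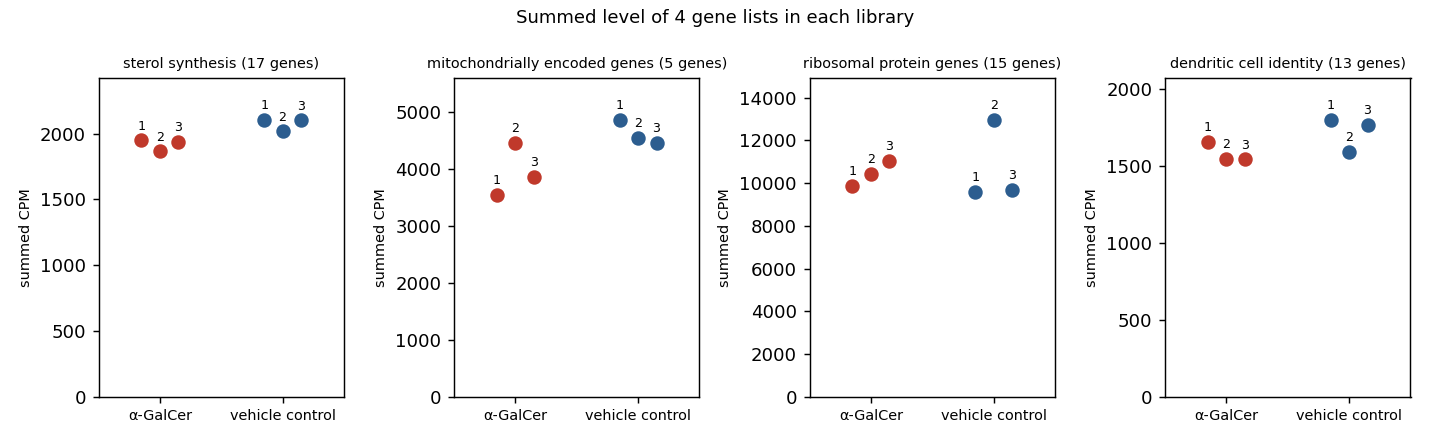
Summed CPM of the tested members of 4 gene lists in the 3 α-GalCer libraries (red, left) and the 3 vehicle control libraries (blue, right), on axes that start at 0, with replicate numbers. The sums of sterol synthesis do not overlap between the groups. Those of mitochondrially encoded genes nearly touch, at 4459 CPM in α-GalCer replicate 2 against 4461 CPM in vehicle control replicate 3. Vehicle control replicate 2 holds the highest ribosomal sum, 12950 CPM, and falls among the α-GalCer libraries for dendritic cell identity, at 1590 CPM.

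For several immune genes, whether a difference appeared turned on vehicle control replicate 2. Of the 58 abundant immune genes, 13 (22.4%) had an unadjusted p under 0.05 without it, against 19.9% of all genes at 100 to 1000 CPM, 8 lower and 5 higher with α-GalCer. Wdfy4, which dendritic cells need in mice to cross-present antigen, had 145, 134 and 141 CPM in α-GalCer libraries, against 174, 131 and 181 CPM in vehicle control libraries. Replicate 2 lay below every α-GalCer library, and replicates 1 and 3 above them all. The log2 fold change of Wdfy4 was -0.21 (-0.45 to 0.02) with all libraries and -0.34 (-0.48 to -0.21) without replicate 2, with adjusted p-values of 1 and 0.144 by edgeR. Tyrobp, the adaptor of activating receptors, behaved in the opposite way, with 498, 463 and 549 CPM with α-GalCer and 448, 581 and 443 CPM with the vehicle control. The dendritic cell identity list, 11 of 13 members of which were level, summed to 1653, 1544 and 1540 CPM with α-GalCer and to 1796, 1590 and 1765 CPM with the vehicle control. Its members Ly75, an endocytic receptor, and Wdfy4, Itgam and Itgax were the 4 with an unadjusted p under 0.05 without replicate 2, all lower with α-GalCer (6.18% of all genes were lower).

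The 6 response-markers of the study, which its later assays used to follow the effect of TLs, were level in 4 cases. Tlr2 and Tlr4 are described above. Adora2a, the adenosine A2a receptor, had 30.8, 24.0 and 27.1 CPM in α-GalCer libraries, a mean of 210 CPM in TL libraries, and 31.3, 34.2 and 28.0 CPM in vehicle control libraries. The fold of α-GalCer over the vehicle control had an interval from 0.751 to 1.02. Cyp2s1, a cytochrome P450, had 60.4, 58.3 and 60.4 CPM with α-GalCer, a mean of 9.94 CPM with TLs, and 63.9, 56.4 and 63.3 CPM with the vehicle control, with an interval from 0.838 to 1.14. Il6 and Il10 were too low to be called level.

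With DESeq2 and without vehicle control replicate 2, 32 of 12786 genes (0.25%) were called, 4 higher and 28 lower with α-GalCer. Of these genes, 31 had an absolute log2 fold change under 1, and in 9 of them replicate 2 lay inside the range of the α-GalCer libraries. The 4 that were higher had no symbol. Among them, ENSRNOG00000059714 had the largest change, 1.83 on the log2 scale (adjusted p = 0.00138 by DESeq2), with replicate 2 inside the α-GalCer range. ENSRNOG00000031053 had the smallest adjusted p of the 32, 3.92e-11 by DESeq2, with a log2 fold change of -0.708. The 13 with a symbol were all lower: Fn1, Fasn, Gvin1, Vcan, Plec, Cpeb4, Wdfy4, Igf2r, C3, Mt-cyb, Nfat5, Macf1 and Polr2a, with log2 fold changes between -0.43 and -0.30. Fn1 (fibronectin) and Vcan (versican) encode extracellular matrix proteins, Plec (plectin) and Macf1 link the cytoskeleton, and Igf2r is the receptor that delivers mannose 6-phosphate proteins to lysosomes. ENSRNOG00000046379, which edgeR called, was given no adjusted p by DESeq2. This group was named after its values had been seen.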

How the data were processed

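RNA from the 9 libraries was selected with poly-T beads, made into NEBNext Ultra libraries and sequenced in pairs. The authors used fastp for read cleaning, HISAT2 for alignment against Rnor_6.0 and featureCounts for counts per Ensembl gene (versions not given in the sources used here), and they deposited raw counts. Counting settings for strand and shared reads are not given, so near-identical or overlapping genes are uncertain.

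Counts were analysed in R 4.3.3 with edgeR 4.0.16. filterByExpr kept 12602 genes, TMM scaled the libraries, and the quasi-likelihood test was fitted to all 9 libraries with group as the only term. CPM use TMM-scaled library sizes. SE is the absolute coefficient divided by the square root of F, and intervals and level tests (margins of 1.5-fold, 2-fold and 0.3 log2) use it with the fit's degrees of freedom. limma 3.58.1 and DESeq2 1.42.0 were alternatives, with other scalings, filters and libraries left out. Scripts were tested on simulated data.

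Symbols came from the first 1999 rows of the study's table of genes called with TLs, which paired 1981 IDs, 1839 of them tested. Only its names were used. Genes named are those called in any of the fits described, the 10 per direction with the smallest p among separated genes, the 4 most abundant members of each list, the 6 response-markers and the 10 in which vehicle control replicate 2 lay farthest out. Other genes were named after their values were seen. Some genes that these rules pick are not reported here, while counts and list sums include them. Members, lists and rules were chosen with earlier results of these data known. The study's NOISeqBIO test was not available here, and its thresholds were kept.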

Additional observations from a re-analysis of the deposited data

How the results depend on the processing

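Counts of genes called moved with the test, the filter and 1 library. With all libraries edgeR called 0 genes, and 0 were called with RLE or upper quartile scaling, robust estimation, a filter of at least 10 counts, the 6 libraries alone or limma-voom. edgeR called 2 with no filter on low counts, and DESeq2 called 2. Leaving out 1 library in turn gave between 0 and 1 calls, between 299 and 1472 genes at an unadjusted p under 0.05, with both highest values for vehicle control replicate 2. Without that library the calls were 1 with both groups alone, 1 with limma-voom and 32 with DESeq2, and genes at an unadjusted p under 0.05 were 1280, 1481 and 1166. limma-voom with sample quality weights, which gave vehicle control replicate 2 a weight of 0.167, had 1988 such genes and called 0. The cause was not tested.

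The median half-width was 0.395 with no filter, which adds low genes, and the number of level genes was 5284 at the margin of 0.3 on the log2 scale. The level count stayed within 1.5 times of 9855 under every other alternative run. No named gene reversed its direction among fits where its unadjusted p was under 0.05 in both. Scaling moved the median log2 fold change of all genes by less than 0.1.

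No pairing by replicate number could be shown: deviations of same-numbered libraries correlated at 0.125, 0.0269 and -0.0558 for numbers 1, 2 and 3. Differently numbered libraries of the 2 groups correlated between -0.137 and 0.103. With 3 libraries per group these values cannot exclude a pairing. With the replicate block, 0 genes were called, 360 had an unadjusted p under 0.05, 9794 were level and the median half-width was 0.252, and it changed no call. Under 1 CPM, 28.7% of genes were level within 2-fold with all libraries, and the depth did not show this for the others.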
